A study of Drosophila melanogaster with 36 samples.

Results

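Male and female brains of 1 genotype, H3.3CtrlH3.2HWT, were compared across all genes. The libraries were chosen by title, 3 male and 3 female of the 36 libraries of a series of fruit fly (Drosophila melanogaster) larval brain mRNA profiles. The tissue was the brain of wandering third-instar larvae kept at 25 °C, and polyA RNA was sequenced with paired reads of 100 bp. The labels give the genotype by its name only, without the alleles or transgenes behind it, and do not say whether a library holds 1 brain or a pool or whether libraries came from separate crosses. p values therefore measure a spread between libraries that may be technical. In the tests of single genes that spread was estimated over all 36 libraries, not from those compared here alone. In the series H3.3CtrlH3.2HWT stands beside H3.3K36RH3.2HWT, in which the name gives arginine for lysine 36 of histone H3.3, beside H3.3WTH3.2HWT, and beside yw, the strain without histone names in its label. Each of these 3 genotypes also has 3 male and 3 female libraries of the same tissue and temperature. None of those libraries is shared with the comparison made here. The series concerns Set2, the H3K36 methyltransferase, H3K36 itself and the male X chromosome.

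Male flies carry a single X chromosome and females a pair. In males the MSL complex, built from the proteins of msl-1, msl-2, msl-3, mle and mof with the noncoding RNAs roX1 and roX2, binds active X-linked genes, acetylates histone H4 at lysine 16 and raises their transcription. The complex is drawn to gene bodies marked by methylation of lysine 36 of histone H3. In females the RNA-binding protein Sex-lethal (Sxl) blocks production of the MSL2 protein and directs female splicing of tra, and through tra of dsx and fru.

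Sexes matched their labels on the markers used to check them, roX1, roX2 and Sxl. The female libraries were not free of Y-linked RNA and roX2, and the origin of these reads was not tested. Summed Y-linked RNA in female libraries 1, 2 and 3 was 5.37%, 7.66% and 3% of the male mean, and roX2 was 2.3%, 9.95% and 3.36% of it, so female library 2 held the most of both. The 6 libraries had 82.5 to 128.8 M reads counted in genes and 12803 to 13258 genes with a read. The variance between male libraries was 13.6 to 19.1 times that of counting independent reads (chi-square over its degrees of freedom). Between female libraries it was 24.3 to 89.2 times, the most between libraries 2 and 3. Such ratios grow with depth, and the females had 105 to 128.8 M reads against 82.5 to 98.65 M in the males. A pair appears to count as 2 reads, so these ratios are larger than they would be in counts of pairs. The brain markers elav, nSyb, brp, Syt1, repo, dpn, ase and mira were detected in all 6 libraries. The sperm transcripts Mst84Da, dj and ProtA had 0 reads in all 6, below a limit of 3 reads per library. They do not stand for their list of 26 testis and sperm genes, of which 13 were tested. Summed over those 13, the males were at 70.5 to 77.8 CPM and the females at 85.5, 109.8 and 76.55. The salivary glue gene Sgs3 was at 14.2 CPM in male library 2 and 0.174 to 2.05 CPM in the others.

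roX1, roX2 and msl-2 of the MSL complex were higher in males. Levels are given as CPM, the reads of a gene scaled to library size with TMM factors, and folds as log2 values from the quasi-likelihood fit of edgeR, male minus female. roX1 (FBgn0019661, X chromosome) stood at 2618, 2673 and 2680 CPM in the males and at 306, 501 and 346 CPM in the females. Every male library was above every female library, and female library 2 was the highest of the females. The log2 fold change was 2.79 ± 0.32 (SE, adjusted p = 6.7e-07). roX2 (FBgn0019660, X chromosome) was at 47.0, 46.4 and 49.5 CPM in the males against 1.10, 4.74 and 1.603 in the females, which do not overlap (log2 fold change 4.27 ± 0.71, adjusted p = 1.7e-04). msl-2, whose protein limits the assembly of the complex to males, lies on arm 2L. Its mRNA was at 127, 131 and 128 CPM in the males and 57.4, 58.8 and 54.5 CPM in the females (1.18 ± 0.085 on the log2 scale, adjusted p = 6.2e-10). The means were 128.5 ± 2.03 and 56.9 ± 2.23 CPM (SD, n = 3), again without overlap.

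Of the 12 dosage compensation genes tested, 6 passed at an adjusted p under 0.05, and each of the 6 was higher in males. Over all 12167 genes tested, 214 were higher (1.76%) and 427 were lower (3.51%), 5.27% together. The list's median log2 fold change was 0.11, against a median of -0.0025 over all genes. mof, the X-linked H4K16 acetyltransferase gene, was at 50.7, 50.7 and 54.7 CPM in the males and 37.9, 39.4 and 34.4 in the females, without overlap (log2 fold change 0.48, adjusted p = 4.0e-05). msl-3, the chromodomain subunit, was higher by 0.32 on the log2 scale (adjusted p = 3.2e-05), but adjusted p rose to 0.065 in a fit of the 6 compared libraries alone. The helicase gene mle was higher by 0.11 (adjusted p = 0.038), and that call was lost in 7 of the alternative settings, with an adjusted p of up to 0.15. msl-1, the scaffold subunit, did not pass (log2 fold change 0.11, adjusted p = 0.066), although its male libraries, at 112.0 to 115.03 CPM, were all above its female libraries, at 104.2 to 106.6 CPM. Such separation of 3 libraries from 3 was common, at 2178 of all genes tested (17.9%). The recruiting zinc finger gene Clamp (0.05, adjusted p = 0.44), the H3 kinase gene JIL-1, the translational repressor gene Unr and the chromodomain gene MRG15 did not pass. Set2, the X-linked gene of the H3K36 trimethylase, stood at 185, 185 and 188 CPM in the males against 179, 176 and 177 in the females, a log2 fold change of 0.07 that did not pass (adjusted p = 0.29).

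**Figure D1:**
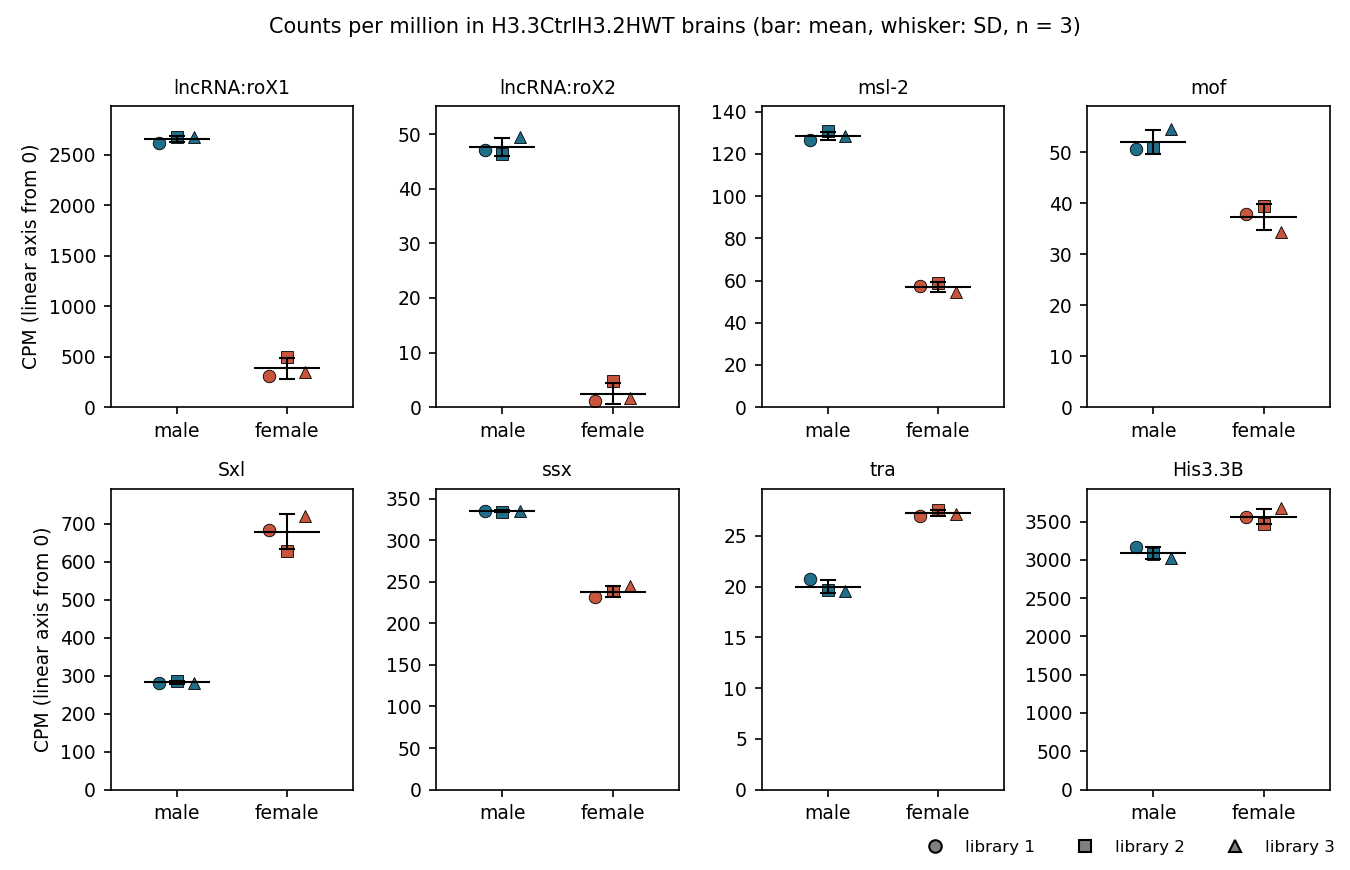
CPM of 8 genes in each H3.3CtrlH3.2HWT library, males at left and females at right of every panel, on linear axes from 0, with bars for the mean and whiskers for the SD of 3 libraries. The male points of roX1, roX2, msl-2, mof and ssx lie above all female points, and those of Sxl, tra and His3.3B below.

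Sex determination genes differed in 5 of 21 tested members, 1 higher and 4 lower in males (1.76% and 3.51% over all genes), with a list median of 0.000765. Sxl (FBgn0264270, X chromosome) was at 281, 285 and 280.0 CPM in the males and 685, 630 and 721 in the females, with no overlap. Its log2 fold change was -1.27 ± 0.10 (adjusted p = 1.1e-09). ssx, the X-linked paralog of Sxl, went the other way, with 336, 334 and 336 CPM in the males and 231, 239 and 245 in the females (log2 fold change 0.49 ± 0.040, adjusted p = 1.3e-09). Whether reads of these related genes were shared in the counting is not given and was not tested. tra, the splicing factor of the female pathway, was at 20.8, 19.6 and 19.6 CPM in the males and 27.01, 27.6 and 27.2 in the females (-0.45 on the log2 scale, adjusted p = 6.2e-06). snf, which encodes a small nuclear ribonucleoprotein used in Sxl splicing, was lower in males by a log2 fold change of -0.14 (adjusted p = 0.0070), a call lost in 2 settings (adjusted p up to 0.15).

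The terminal regulators of sexual differentiation were less certain. fru, a transcription factor gene of neurons with sex-specific splicing, was at 79.8, 76.7 and 80.6 CPM in the males and 93.6, 112 and 86.8 in the females. Female library 2 was the highest, and without it the log2 fold change of -0.30 (adjusted p = 0.033) became -0.19 (adjusted p = 0.40). dsx was at 7.35 to 8.89 CPM in the males and 9.76 to 11.4 in the females, and did not pass (-0.33, adjusted p = 0.15). Counts per gene do not show which splice form was made. Exons of tra, dsx, msl-3 and His3.3A overlap another gene on the other strand, whose reads cannot be told apart here. The cofactor gene tra2 and the m6A and splicing factor genes vir, fl(2)d, nito, Hakai, Ythdc1 and Mettl3 did not pass, with log2 fold changes between -0.01 and 0.06. Among the X-linked counting genes of early embryos, upd1 (-0.14) and run (-0.16) did not pass either, nor did da, dpn, emc, gro, her and ix (log2 fold changes between -0.02 and 0.07).

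His3.3B (FBgn0004828, X chromosome), 1 of the genes for histone H3.3, was lower in males. It stood at 3171, 3075 and 3022 CPM in the males and 3557, 3468 and 3672 in the females, with no overlap (log2 fold change -0.21 ± 0.038, adjusted p = 5.5e-04). In the fit of the compared libraries alone adjusted p was 0.055. His3.3A (FBgn0014857, arm 2L), the other H3.3 gene, was at 70.9, 67.3 and 64.5 CPM in males and 66.9, 69.6 and 60.2 in females, and the sexes overlapped (log2 fold change 0.04, adjusted p = 0.78). Its level was low in this genotype in both sexes, with means of 67.6 CPM in males and 65.6 in females, close to the 67.6 and 69.4 of H3.3K36RH3.2HWT. In yw the His3.3A means were 313 and 304 CPM, and in H3.3WTH3.2HWT 304 and 305. The sex difference of His3.3B was -0.15 in yw (adjusted p = 0.017), -0.11 in H3.3WTH3.2HWT (adjusted p = 0.32) and -0.23 in H3.3K36RH3.2HWT (adjusted p = 3.1e-04), and no test of a difference from H3.3CtrlH3.2HWT passed (adjusted p between 0.80 and 1). Of 10 H3.3 and chaperone genes tested His3.3B was the single call. Of 12 H3K36 methylation factors 0 were called in either direction. Of 8 chromosome-wide chromatin factors 0 were called. At an unadjusted p under 0.05 edgeR gave 1 of 12 and 1 of 8 genes, and DESeq2 called 0 and 1.

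Most sex differences lay on the X chromosome. Of 2016 X-linked genes tested, 113 were higher in males and 336 lower, 22.3% together. On arms 2L, 2R, 3L and 3R 85 of 9962 genes were higher and 87 lower (1.73%), with 1.47% to 1.98% called on each arm. The median log2 fold change was -0.0635 over X-linked genes (quartiles -0.22 and 0.069) and 0.0022 over the autosomal arms. On the X 1271 genes (63%) had a fold change below 0. In bulk tissue, fewer cells of a type and less RNA per cell cannot be told apart. Counts of calls depended on the libraries fitted. With the 6 compared libraries alone, 56 X-linked genes were higher and 121 lower, and on the autosomal arms 19 and 6. The 427 falls over all genes became 267 without male library 2, 281 without female library 2 and 641 without female library 3.

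X-linked falls were mostly small, and rises were fewer but larger. The median log2 fold change was 0.51 over the called X-linked rises and -0.28 over the falls. Of the falls, 83 lay between 0.1 and 0.2 in size on the log2 scale, 96 between 0.2 and 0.3 and 75 between 0.3 and 0.5, while 43 exceeded 1. Of the rises, 35 exceeded 1. Split into 4 equal sets by level, 9.72% of the X-linked genes below 0.684 CPM were called, 25.2% of those up to 18.2 CPM, 32.1% of those up to 76.2 CPM and 22% of those above. Falls outnumbered rises in each set, by 31 to 18, 81 to 46, 139 to 23 and 85 to 26. The median stayed below 0 in each, from -0.093 to -0.039. Autosomal genes in the same level ranges were called at 0.931% to 2.41%.

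**Figure D2:**
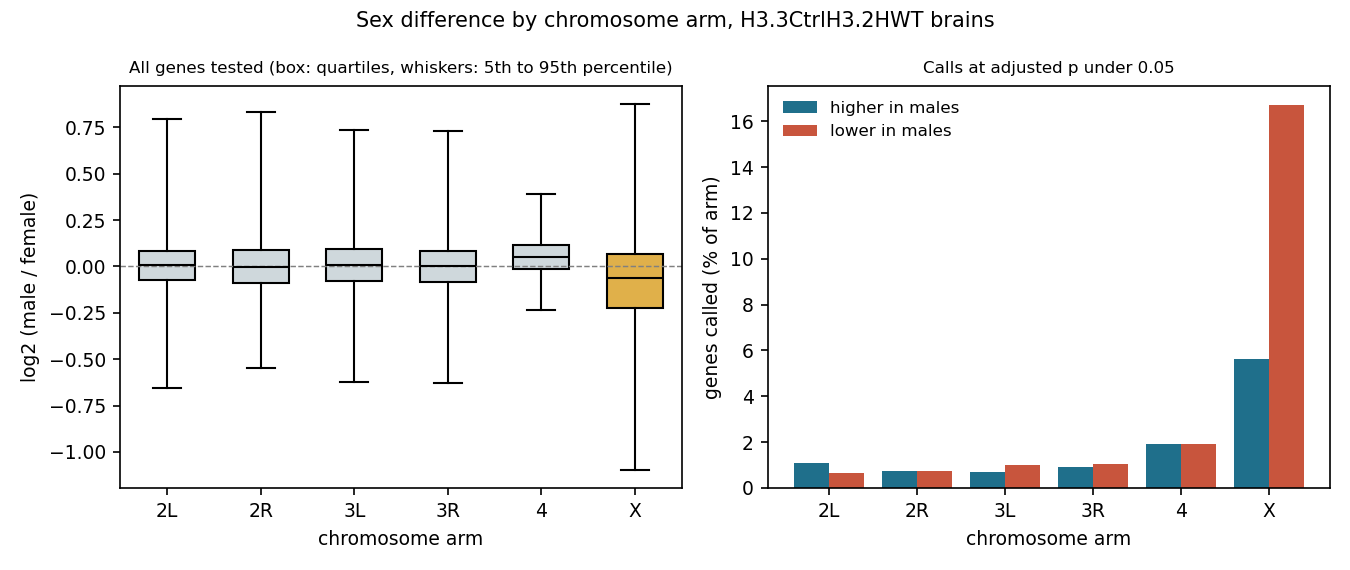
Left, log2 male-to-female ratio of the genes tested on arms 2L, 2R, 3L, 3R, 4 and X, as boxes of quartiles with whiskers from the 5th to the 95th percentile. Right, percent of genes called on the 6 arms drawn (the Y and unmatched genes are not drawn), where the X reaches 5.61% higher and 16.7% lower in males and chromosome 4, the next of the 6, 1.9% in each direction.

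A single value per library separated the sexes as well. The X-to-autosome value of a library is its median log2 CPM on the X, each gene centred over libraries, less the same median on 2L, 2R, 3L and 3R. It was -0.0245, -0.0333 and -0.0391 in the males and 0.0298, 0.032 and 0.0352 in the females. All 3 males were below all 3 females. The shift, male minus female, was -0.0646, with SDs of 0.0073 in males and 0.0027 in females (n = 3 each). An exact 2-sided permutation test gave p = 0.1, which is the smallest that 3 libraries against 3 allow.

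The same shift was -0.0462 in yw, -0.0459 in H3.3WTH3.2HWT and -0.0665 in H3.3K36RH3.2HWT. In these values each gene was centred over the libraries of 1 genotype. For the differences below it was centred over both genotypes together, so they do not equal the differences of the shifts just given. The shift of H3.3CtrlH3.2HWT differed from that of yw by -0.0234 (exact permutation of genotype labels within each sex, p = 0.095, adjusted over 3 comparisons 0.1425), from that of H3.3WTH3.2HWT by -0.024 (exact permutation p = 0.035, adjusted 0.105) and from that of H3.3K36RH3.2HWT by -0.0019 (exact permutation p = 0.875). None passed after adjustment. The difference from yw passed when means over genes replaced medians (-0.0528, adjusted exact permutation p = 0.045) and without yw female library 3 (-0.0272, adjusted exact permutation p = 0.015), and the difference from H3.3WTH3.2HWT passed without H3.3WTH3.2HWT male library 3 (-0.0293, adjusted exact permutation p = 0.03). The female libraries of the other genotypes held other amounts of roX2. roX2 stood at 17.4% to 35.7% of the male mean in the females of H3.3WTH3.2HWT, at 4.94% to 25.2% in those of H3.3K36RH3.2HWT and at 0.093% to 4.46% in those of yw. Summed Y-linked RNA was at 22.9%, 86.4% and 20.3% of the male mean in H3.3WTH3.2HWT female libraries 1, 2 and 3. In the females of H3.3K36RH3.2HWT it was at 10.2% to 22.6%. The part of these amounts in the differences was not tested.

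**Figure D3:**
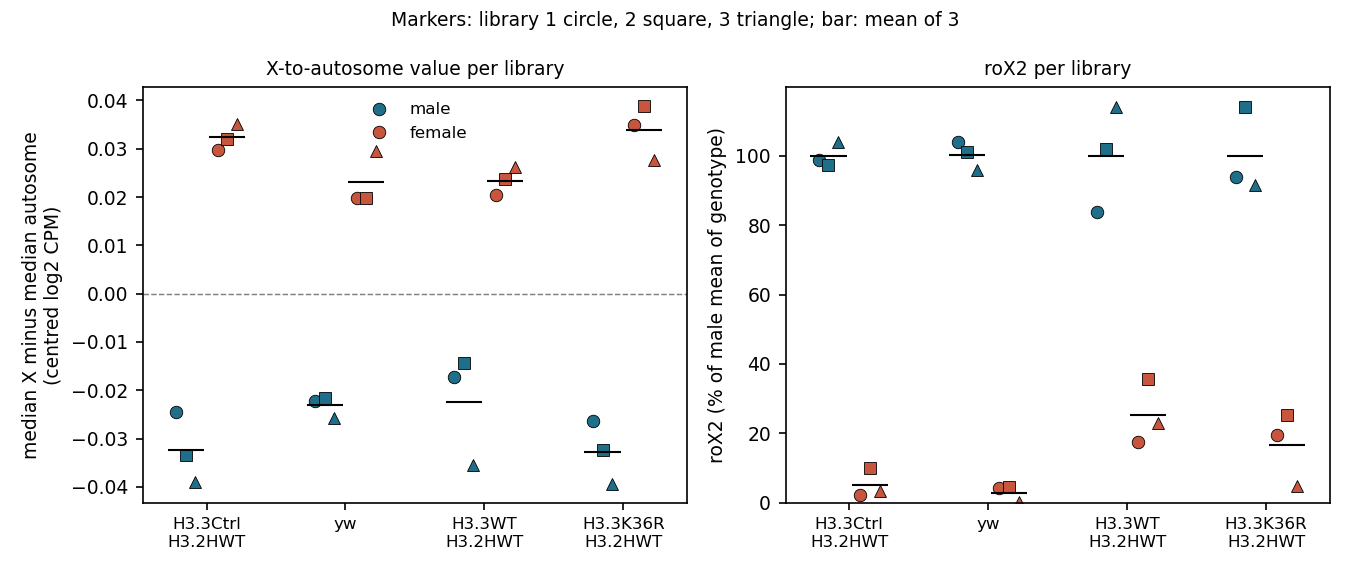
Left, X-to-autosome value of each library (log2 units) in 4 genotypes, males in blue and females in red, with bars for means of 3, where males lie below 0 and females above 0 in each genotype. Right, roX2 in each library as percent of the male mean of its genotype, which is highest among females in H3.3WTH3.2HWT, at up to 35.7%.

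Apart from roX1 and roX2, the largest X-linked rises among named genes of at least 5 CPM were in genes of unlike roles. obst-A, which encodes a chitin-binding protein of the cuticle, was at 24.2, 26.5 and 31.1 CPM in the males and 8.52, 9.05 and 9.29 in the females (log2 fold change 1.61 ± 0.22, adjusted p = 1.6e-05). Rph, the gene of the synaptic vesicle protein Rabphilin, was at 158, 168 and 163 CPM against 99.1, 90.8 and 104 (0.73 ± 0.076, adjusted p = 1.7e-07). In both genes the libraries of the sexes did not overlap. The cytochrome P450 gene Cyp4d2 was higher by 0.82, the DNA break repair gene XRCC1 by 0.52 and the myosin gene Myo10A by 0.51, the last a call lost in 5 settings (adjusted p up to 0.12). The exons of Cyp4d2 overlap an antisense gene, those of Rph overlap ras and those of Myo10A overlap C901 on the other strand. Since the strand setting of the counting is not given, reads of such pairs cannot be told apart.

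The eye pigment transporter gene w, which is also a common marker on transgenes, was at 237, 295 and 271 CPM in the males and 173, 188 and 179 in the females (log2 fold change 0.57, adjusted p = 0.0043). Its mean in yw was 0.110 CPM in males and 0.111 in females. In H3.3WTH3.2HWT w stood at means of 244 and 251 CPM, which is -0.04 on the log2 scale (adjusted p = 0.99), and in H3.3K36RH3.2HWT at 273 and 203 CPM (0.43, adjusted p = 0.063). The test of a difference between H3.3CtrlH3.2HWT and the other genotypes did not pass for w (lowest adjusted p = 0.295). Of 10 visible marker genes tested, w was the single call.

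After Sxl, the largest X-linked falls among named genes of at least 5 CPM without overlap of the sexes lay between -1.03 and -0.52 on the log2 scale. Larger falls lay outside these limits. The nicotinic acetylcholine receptor subunit gene nAChRalpha3 was at 46.5, 44.7 and 45.9 CPM in the males and 68.7, 64.2 and 66.8 in the females (log2 fold change -0.54 ± 0.065, adjusted p = 1.6e-06). Frq2, a neuronal calcium sensor gene with a near copy, Frq1, was at 25.6, 25.1 and 26.4 CPM against 38.4, 44.6 and 34.98 (-0.61 ± 0.072, adjusted p = 1.0e-06). In neither gene did the sexes overlap. dpr18, of a family of cell surface immunoglobulin proteins in synaptic partners, fell in males by 0.52 on the log2 scale, and the syntaxin gene Syx4 by 0.64, calls lost in 1 and 3 settings (adjusted p up to 0.082 and 0.14). SmydA-4, of the SET and MYND domain family, was at 6.75, 5.59 and 6.63 CPM in the males and 13.9, 14.2 and 10.5 in the females (-1.03, adjusted p = 1.6e-04). lawc, whose exons overlap Trf2 on the other strand, fell in males by 0.60 on the log2 scale (adjusted p = 8.6e-08).

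Genes next to the roX genes did not move as a block. Among the 3 tested genes on each side of roX1, the chaperone cofactor gene HIP was higher in males by 0.21 (adjusted p = 0.013, lost in 4 settings with an adjusted p of up to 0.17), CG2930 was higher by 1.25 (adjusted p = 0.0043) and yin, an oligopeptide transporter gene, was lower by a log2 fold change of -0.64 (adjusted p = 0.0041). CG2930 and yin overlap on opposite strands. Male library 3, at 3.81 CPM, set CG2930 apart from the 1.32 and 1.33 CPM of the other males and the 0.869 to 0.948 of the females. Without it CG2930 was higher by 0.55 and did not pass (adjusted p = 0.16). ec, whose exons overlap roX1, did not pass (0.33, adjusted p = 0.28), nor did the proton pump gene VhaAC39-1, and CG2901 was at most at 0.0698 CPM in a library. Beside roX2, nod, a kinesin-like gene of chromosome segregation, was higher by 0.46 (17.4 to 18.7 CPM in females against 23.97 to 25.4 in males, adjusted p = 3.3e-04). pkm and CR43212 were below 0.1 CPM on average in both sexes, and CG11696, e(y)2 and CG11695 did not pass (log2 fold changes of 0.005, -0.07 and -0.08).

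Outside the X chromosome the largest rise among named genes of at least 5 CPM was Y-linked. FDY was at 14.5, 16.2 and 13.7 CPM in the males and 0.611, 0.985 and 0.420 in the females (log2 fold change 4.45 ± 0.61, adjusted p = 1.2e-05). Of 29 Y-linked genes tested, 12 were called, all higher in males (41.4%). In yw FDY stood at 0.205 CPM in males and 0.0903 in females, and summed Y-linked RNA was at 1.13 to 2 CPM in males and 1.18 to 1.57 in females. On chromosome 4, 2 of 105 genes were higher and 2 lower (3.81%), and the median was 0.049, with 29.5% of the genes below 0.

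After FDY and msl-2, the largest rises outside the X among named genes of at least 5 CPM were under 1 on the log2 scale. The germline piRNA gene aub was at 10.99, 10.6 and 9.68 CPM in the males and 7.36, 6.35 and 7.56 in the females (log2 fold change 0.56, adjusted p = 0.018), lost in 3 settings (adjusted p up to 0.12). PCNA2, a paralog of the replication clamp gene, was higher by 0.46 (adjusted p = 1.8e-04), and the glycosyltransferase gene Pgant35A by 0.34 (adjusted p = 0.0015). These calls held in all 13 alternative settings. The calls of gammaTub37C (0.47), the sulfatase gene Ids (0.45) and RhoGAP102A of chromosome 4 (0.38) were lost in 8, 3 and 5 settings, with an adjusted p of up to 0.20, 0.16 and 0.14.

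Among named autosomal genes of at least 5 CPM without overlap of the sexes, female library 2 was the highest library in each of the 8 largest falls. The transporter gene MFS9 was at 5.94, 4.31 and 5.25 CPM in the males and at 14.7, 44.3 and 6.04 in the females (-2.07 ± 0.51 on the log2 scale, adjusted p = 0.011). The sexes did not overlap, but female library 3 was near the males. The amino acid transporter gene path was at 211, 180 and 204 CPM against 261, 379 and 239 (-0.57, adjusted p = 0.018). Mdr65, an ABC transporter gene of the glial blood-brain barrier, was at 77.4, 69.9 and 70.3 CPM against 114, 127 and 86.1 (-0.59, adjusted p = 0.0073). In these 3 genes the females ran in the order library 2, 1, 3.

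The same order of female libraries was seen in Jheh3 (log2 fold change -1.14), a juvenile hormone epoxide hydrolase gene, in the metallothionein gene MtnA (-0.72), in the esterase gene alpha-Est9 (-0.65) and in the organic anion transporter gene Oatp58Dc (-0.58). Without female library 2 all 7 lost their call. Adjusted p was then 0.38 for MFS9 (log2 fold change -1.01), 0.32 for path, 0.089 for Mdr65 and 0.43 for Jheh3. It was 0.055 for MtnA, 0.32 for alpha-Est9 and 0.18 for Oatp58Dc. All 7 also lost it with the compared libraries alone. MFS9, Jheh3, path, alpha-Est9 and Oatp58Dc lost it without male library 2 as well. MFS9, Jheh3 and path also lost it without male library 3, and alpha-Est9 without male library 1. Marf1, a meiosis regulator gene, was steadier, with 6.09, 5.50 and 4.72 CPM in the males and 9.52, 9.63 and 9.18 in the females (-0.80, adjusted p = 0.022), but its adjusted p was 0.068 without female library 2 and 0.118 without male library 3.

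Of the 89 genes of 2L, 2R, 3L, 3R and chromosome 4 that were lower in males, female library 2 was the highest female in 71, library 1 in 10 and library 3 in 8. Among the 336 X-linked falls it was the highest in 144, library 1 in 92 and library 3 in 100. Of the 87 genes of 2L, 2R, 3L, 3R and chromosome 4 that were higher in males, female library 2 was the lowest female in 43. Library 1 was the lowest in 20 and library 3 in 24. How often each was the extreme female over all genes tested was not counted. Without female library 2, 18 genes of 2L, 2R, 3L and 3R were lower in males, 16 of them among the 87 falls first called on these arms. Of the 336 X-linked falls 248 were kept. Without female library 3, 291 genes of those arms were lower. Leaving out another library also lowered that count of 87 falls. It became 24 without male library 2, 42 without male library 3, 46 without female library 1 and 49 without male library 1. Female library 2 also held the most roX2 and Y-linked RNA of the females. What sets it apart was not tested.

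**Figure D4:**
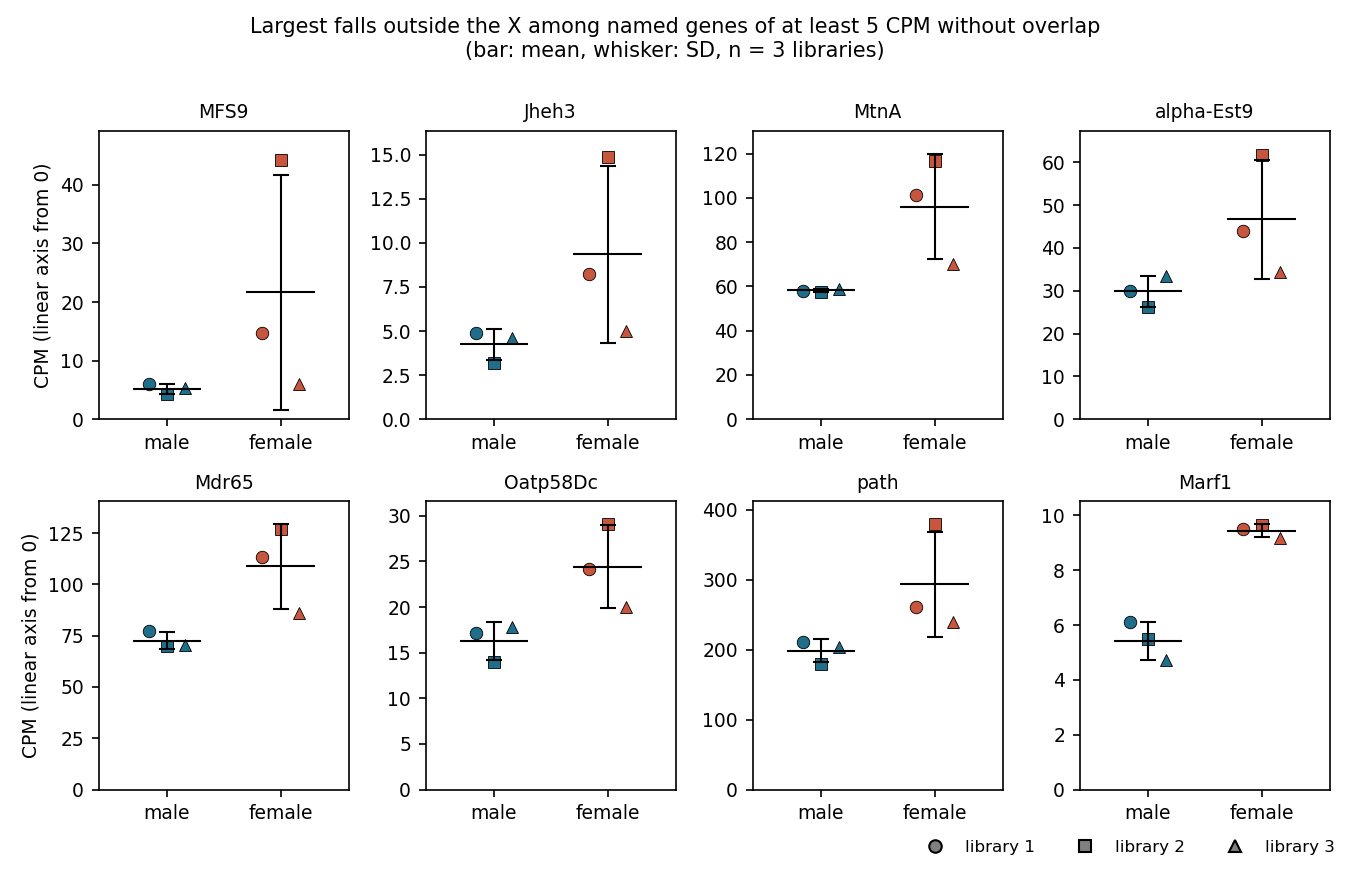
CPM in each library of the 8 largest called falls in males outside the X among named genes of at least 5 CPM without overlap of the sexes, on linear axes from 0, with bars for the mean and whiskers for the SD of 3 libraries. Female library 2 (square) is the highest female in each panel, widely so in MFS9, Jheh3 and path, and only marginally in Marf1.

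Members of the cell type and tissue lists are counted against 1.76% higher and 3.51% lower over all genes tested, and 5.61% and 16.7% over X-linked genes. Among differentiated neuron genes, of which 8 of 24 are X-linked, 4 passed, all lower in males, and the list median was -0.12. The X-linked members were the potassium channel gene Sh (505, 527 and 560 CPM in males and 765, 669 and 739 in females, -0.45 on the log2 scale, adjusted p = 0.0049), the amyloid precursor-like gene Appl (-0.30, adjusted p = 0.0021) and the octopamine synthesis gene Tbh (-0.46, adjusted p = 0.0067, lost in 3 settings with an adjusted p of up to 0.24). The autosomal member was the synaptic gene Syx1A (-0.12, adjusted p = 0.025, lost in 5 settings). Summed over the 24 neuron genes, Sh and Appl among them, the males were at 9550 to 10040 CPM. The females were at 10530, 10490 and 10280, so the sexes did not overlap. Of 19 neural stem cell genes 1 passed, the X-linked transcription factor gene btd (-0.34, adjusted p = 0.019, lost in 5 settings). Of 31 cell cycle and DNA replication genes 1 passed, the X-linked replication factor gene Cdc45 (-0.27, adjusted p = 0.0014).

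Of 15 glial genes 3 passed, all lower in males (3.51% over all genes), namely the glial regulator repo (-0.19, adjusted p = 0.028), the surface protein gene wrapper (-0.29, adjusted p = 0.0016, and 0.063 with the compared libraries alone) and Mdr65. Summed over the list the males were at 1374 to 1438 CPM and the females at 1473, 1658 and 1400, so the sexes overlapped. Without female library 2 the adjusted p of repo was 0.30. Among 35 genes of neuropeptides and insulin-like peptides 3 passed, all lower (3.51% over all genes), and the median was -0.25. Dh44, a diuretic hormone gene, was at 61.6, 53.7 and 57.1 CPM in the males and 75.7, 77.7 and 68.9 in the females (-0.37, adjusted p = 4.7e-04), a call held in all 13 alternative settings. Those of sNPF (-0.28) and Tk (-0.51) were each lost in 4 settings (adjusted p up to 0.27 and 0.21). The list's summed level was 711 to 747 CPM in the males and 873, 1107 and 778 in the females, highest in female library 2.

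Germline genes gave 1 rise (aub) and 1 fall (Marf1) in 24 tested, and testis and sperm genes 1 fall in 13 tested, the meiotic RNA-binding gene bol (-0.53, adjusted p = 0.015, and 0.38 without female library 2). Eye disc genes gave 2 rises in 15, the eye regulators eya (0.29, adjusted p = 0.015) and so (0.30, adjusted p = 0.036), lost in 3 and 7 settings. Imaginal disc genes gave 2 falls in 18, the X-linked transcription factor genes bi (-0.30, adjusted p = 6.7e-05) and sd (-0.16, adjusted p = 9.7e-04, lost in 1 setting). Fat body genes gave 1 fall in 12, the lipoprotein gene apolpp (-0.30, adjusted p = 0.0078, lost in 3 settings), which was at 844 to 957 CPM in the males and 1075 to 1194 in the females. The ring gland, salivary gland, hemocyte, muscle, cuticle and trachea, heat shock, ecdysone response and antimicrobial lists gave 0 calls in 11, 12, 14, 15, 11, 13, 18 and 15 genes tested. At an unadjusted p under 0.05 edgeR gave 0, 1, 2, 0, 1, 0, 5 and 0 genes in these lists, in that order, and DESeq2 called 0 in each.

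Over all genes tested 5.27% were called, and the shares in the ribosomal and oxidative phosphorylation lists were near it. Cytoplasmic ribosomal protein genes gave 3 rises in 88, RpL35 (0.18), RpL34a (0.23) and RpS14b (0.18), and the last 2 have near copies whose reads may be shared. The calls of RpL35 and RpS14b were lost in 2 and 4 settings. Mitochondrial ribosomal protein genes gave 4 falls in 72, mRpL35 (-0.21), mRpS17 (-0.20), mRpL49 (-0.24) and mRpS14 (-0.25), calls lost in 2, 5, 6 and 9 of 13 settings (adjusted p up to 0.18, 0.31, 0.19 and 0.21). Exons of mRpS14 overlap CG32533 on the same strand, itself lower in males (-0.24, adjusted p = 0.0027). How reads of this pair were assigned is not given. Oxidative phosphorylation genes gave 1 rise and 1 fall in 35, both X-linked subunits of complex I, ND-75 (0.16) and ND-20 (-0.18), lost in 7 and 5 settings. DNA damage and p53 response genes gave 2 rises in 21, egr (0.17) and spn-A (0.28), lost in 8 and 4 settings, and detoxification genes 1 fall in 13, GstE1 (-0.52, adjusted p = 0.041, and 0.45 without female library 2). In the NSL complex, which shares mof with the MSL complex, wds was lower (-0.14, adjusted p = 0.011), and among 6 H4K16 acetylation genes Tip60 was lower (-0.17, adjusted p = 0.011), calls lost in 2 and 4 settings. Both are X-linked.

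The calls were compared with those of the other genotypes. Each set contrasts a genotype's own libraries, within the fit shared by all 36. In yw 332 genes were called between the sexes (2.73%, with 1.13% higher and 1.59% lower in males). In H3.3WTH3.2HWT 73 were called (0.6%, with 0.197% higher and 0.403% lower), and in H3.3K36RH3.2HWT 364 (2.99%, with 1.05% higher and 1.94% lower). Of the 336 X-linked falls here, 132 were also called lower in yw, 39.3% of these and 73.3% of the 180 of yw. The overlap with H3.3WTH3.2HWT was 41, 12.2% of these and 85.4% of its 48, and with H3.3K36RH3.2HWT 161, 47.9% of these and 73.9% of its 218. Of the 113 X-linked rises 58, 17 and 51 were shared, 51.3%, 15% and 45.1% of them. Few autosomal falls were called in the other genotypes, 14 in yw, 1 in H3.3WTH3.2HWT and 15 in H3.3K36RH3.2HWT. Of the 87 here 3, 1 and 6 were among them, 21.4%, 100% and 40% of those calls. A fold change below 0 was seen for 58, 82 and 70 of the 87 in those genotypes. The median log2 fold change over all genes tested on these arms was 0.0051, 0.0054 and 0.0072 there. Since they were selected by their call here, their sizes are not compared. Numbers of calls do not compare sizes of effects, and the amounts of roX2 in female libraries given above differed between genotypes.

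A test of the difference itself named few genes. The sex difference of H3.3CtrlH3.2HWT differed from that of yw in 20 genes (0.164%), 18 of them X-linked, from that of H3.3WTH3.2HWT in 19 (0.156%), 18 X-linked, and from that of H3.3K36RH3.2HWT in 22 (0.181%), all X-linked. In 4 X-linked genes it differed from all 3. Among them were asRNA:CR45714, Frq2 and CG9164. Counts moved with the libraries, to 4 against yw without yw female library 3, 5 without female library 2 and 33 without female library 3, and over all such fits to 8 to 19 against H3.3WTH3.2HWT and 9 to 27 against H3.3K36RH3.2HWT. roX1, roX2, msl-2, Sxl, ssx, mof and tra did not pass in any of the 3 tests. The differences of roX2 were -0.82 from yw (adjusted p = 0.84), 2.29 from H3.3WTH3.2HWT (0.82) and 1.67 from H3.3K36RH3.2HWT (1).

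The noncoding RNA asRNA:CR45714 was at 0.171, 0.123 and 0.165 CPM in the males and 1.33, 1.01 and 0.958 in the females (-2.84 ± 0.23 on the log2 scale, adjusted p = 1.1e-09). The means were 0.0947 and 0.035 CPM in males and females of yw, 3.04 and 2.61 in H3.3WTH3.2HWT and 0.268 and 0.142 in H3.3K36RH3.2HWT. The mean was thus higher in females here and higher in males in the other genotypes. The sex difference did not pass in yw (1.39, adjusted p = 0.11) or H3.3WTH3.2HWT (0.22, adjusted p = 0.95). It passed in H3.3K36RH3.2HWT (0.91, adjusted p = 0.026). The yw female mean was about at the limit of 3 reads per library. Its exons overlap Hayan, a serine protease gene, on the other strand, and Hayan did not pass (-0.41, adjusted p = 0.46). Frq2 had a difference of -0.08 in yw, -0.14 in H3.3WTH3.2HWT and -0.11 in H3.3K36RH3.2HWT, against -0.61 here.

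Other genes differed from 1 or 2 of the genotypes. The potassium channel gene eag was at 43.9, 43.3 and 45.9 CPM in the males and 59.9, 61.4 and 56.8 in the females, without overlap (-0.42 ± 0.052, adjusted p = 2.2e-06), while its sex difference was 0.01 in yw and -0.08 in H3.3K36RH3.2HWT. Pa1 was at 43.5, 44.9 and 43.4 CPM against 53.1, 55.9 and 53.9 (-0.31, adjusted p = 7.3e-06), and had 0.18 in yw and 0.08 in H3.3K36RH3.2HWT. Rph, at 0.73, had 0.20 in H3.3WTH3.2HWT and 0.20 in H3.3K36RH3.2HWT. For Mgstl, a microsomal glutathione transferase gene, and baz, the gene of the polarity protein Par-3, the sex difference did not pass here (0.10, adjusted p = 0.26, and 0.07, adjusted p = 0.61). Mgstl was lower in males of yw (-0.39) and of H3.3K36RH3.2HWT (-0.43), where its means were 33.997 and 31.7 CPM in males against 117 here, and baz was lower in males of H3.3WTH3.2HWT (-0.52).

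**Figure D5:**
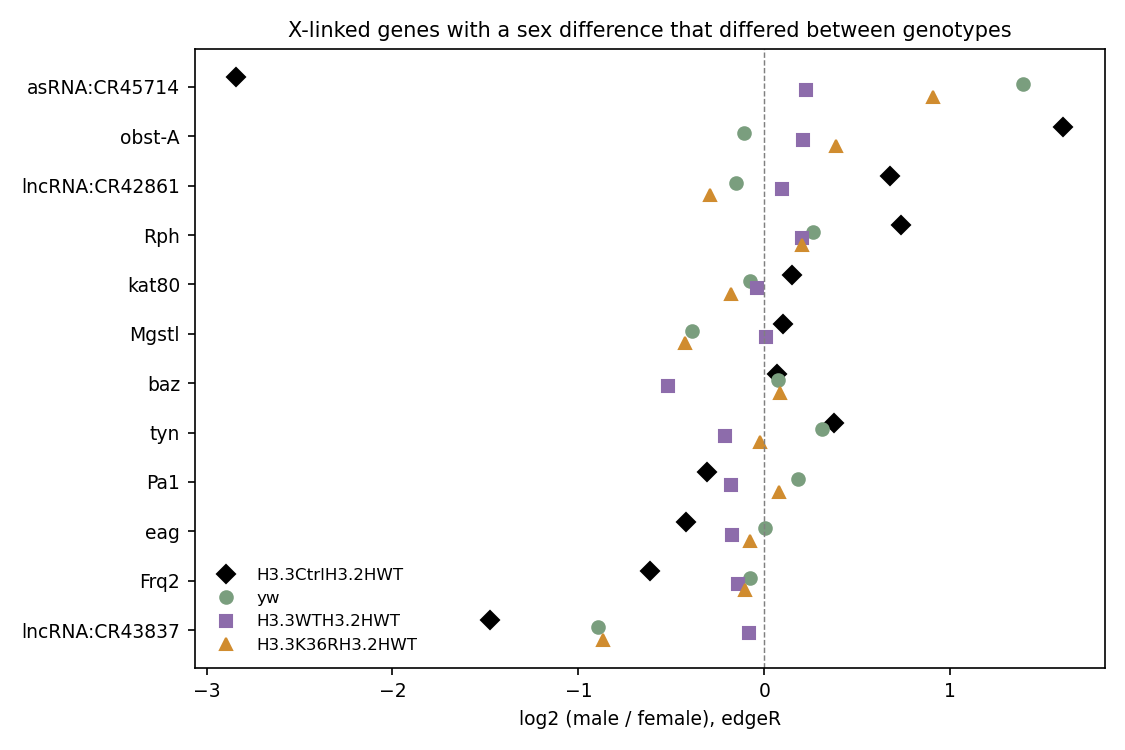
log2 male-to-female ratio from edgeR of 12 X-linked genes whose sex difference differed between H3.3CtrlH3.2HWT (black diamonds) and at least 1 other genotype. For asRNA:CR45714 the diamond lies at -2.84, left of 0, and the other 3 points lie right of 0. Of those 3, the sex difference passed in H3.3K36RH3.2HWT only.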

How the data were processed

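The authors deposited raw whole-number counts of reads per gene, 1 column per library, without normalization. Per the submitters' processing notes STAR 2.7.2a and Subread 2.0.3 were used. The sources used here do not give the genome build, annotation or strand setting. Per the labels' protocols libraries were stranded and polyA-selected. Of values from 1 to 4, 80.8% to 83.1% were even in each library, so a pair appears to count as 2 and values are called reads. Of 17606 genes 17527 were matched by identifier to the Ensembl fruit fly annotation for symbol and chromosome arm. The other 79 held 0.394% to 0.419% of reads.

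R 4.3.3 with edgeR 4.0.16 was used (filterByExpr, minimum count 10, TMM, quasi-likelihood fit over 12 group means of 36 libraries, 24 residual degrees of freedom, Benjamini-Hochberg over 12167 genes, threshold 0.05, 2-sided). The members and the 31 gene lists (686 entries, 16 matched by a synonym and 16 not found) were chosen with earlier results of these data known. Named genes were roX1, roX2, msl-2, Sxl, Set2 and the H3.3 genes, the 8 largest rises and falls on the X and elsewhere among called genes of at least 5 CPM without overlap and with a name, up to 4 called members per list, all dosage compensation and sex determination genes, the 5 smallest p per genotype difference, and 3 neighbours per side of each roX gene. CG9164, Sgs3, the sperm and brain markers and the overlapping genes were named after their values were seen. Means and SDs are over n = 3 libraries. The X-to-autosome values used a prior count of 2. Fits were tested on simulated data. Alternatives were DESeq2 1.42.0 as a test and for size factors, TMM on autosomal genes, other filters, a replicate block, the compared libraries alone and each library left out. Same-numbered male and female libraries deviated with correlations of -0.148 to -0.0994, so the numbers were not taken to pair them. No 2 libraries agreed within counting error. A limit of 3 reads is 0.0235 to 0.0366 CPM, and covers counting error only. It takes reads as independent, so it is too low where a pair counts as 2. No sequence was used here. A gene among the genotype differences is not reported here.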

Additional observations from a re-analysis of the deposited data

Results flagged for a closer look

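The results given here are sex differences (male minus female, log2, edgeR) that differed between H3.3CtrlH3.2HWT and another genotype in the test of the difference itself, and each value is that difference. All the genes are X-linked, and no explanation was weighed.

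asRNA:CR45714 differed by -4.23 from yw (adjusted p = 2.7e-07), by -3.06 from H3.3WTH3.2HWT (4.7e-07) and by -3.75 from H3.3K36RH3.2HWT (5.3e-08), and these calls held in every alternative setting run. Frq2 differed by -0.54, -0.47 and -0.51 from the same genotypes (adjusted p = 0.019, 0.043 and 0.021), calls lost in 8, 13 and 10 settings, with an adjusted p of up to 0.20, 0.52 and 0.25.

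Against yw and H3.3K36RH3.2HWT, Pa1 differed by -0.49 and -0.39 (adjusted p = 1.8e-05 and 7.9e-04), and Mgstl by 0.49 and 0.53 (2.1e-04 and 6.7e-05). These 4 calls held in every setting run. eag differed by -0.42 and -0.34 (adjusted p = 0.0090 and 0.034), lost in 1 and 10 settings. lncRNA:CR42861, at 10.2 to 12.1 CPM in the males and 6.70 to 7.06 in the females, differed by 0.83 and 0.97 (adjusted p = 0.019 and 0.0026), lost in 4 and 1 settings. kat80, the gene of a katanin subunit, differed by 0.23 and 0.33 (adjusted p = 0.041 and 7.9e-04), lost in 14 and 1 settings.

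Against yw alone obst-A differed by 1.72 (adjusted p = 0.019, lost in 3 settings). Against H3.3WTH3.2HWT baz differed by 0.59 (adjusted p = 5.6e-04), lncRNA:CR43837 by -1.39 (8.3e-04) and tyn by 0.59 (0.0042), of which the call of tyn was lost in 1 setting and the others in none. Rph differed by 0.53 from H3.3WTH3.2HWT (adjusted p = 0.033) and by 0.53 from H3.3K36RH3.2HWT (0.024), lost in 9 and 10 settings. The exons of tyn overlap other genes on both strands.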

How the results depend on the processing

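With only the compared libraries fitted, 82 genes were higher and 128 lower in males (X-linked 56 and 121), and 12, 6 and 9 genes differed in their sex difference from yw, H3.3WTH3.2HWT and H3.3K36RH3.2HWT. DESeq2 gave 45, 38 and 43 such genes, and the replicate block 7, 8 and 13. The block left 215 genes higher and 408 lower. Leaving out 1 library at a time gave 153 to 236 genes higher and 267 to 641 lower, X-linked 82 to 108 and 240 to 345. The low and high of the falls came without male library 2 and without female library 3, and 281 remained in number without female library 2. Such fits gave 4 to 33 genes against yw (lowest without yw female library 3, 5 without female library 2), 8 to 19 against H3.3WTH3.2HWT and 9 to 27 against H3.3K36RH3.2HWT. The cause was not tested.

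The X-to-autosome shift was -0.0848 with means over genes and -0.0451 without a filter on low counts, and -0.0679 to -0.0636 with a library left out. Its difference from yw was -0.0528 with means (adjusted p = 0.045) and -0.0285 to -0.016 with a library left out, and that from H3.3WTH3.2HWT -0.0293 to -0.0173. The difference from H3.3K36RH3.2HWT, which did not pass, was 0.0022 with genes of at least 1 CPM in 3 libraries, 0.0059 with genes of at least 5 CPM, and -0.0066 to 0.0021 with a library left out (above 0 in 4 of 12, at 0.0013, 0.0015, 0.0020 and 0.0021).

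Calls were 33.4% rises at first, 26.9% without female library 3 and 39% with the compared libraries alone. Of 81 named genes with a call, 32 kept it in every setting, 49 lost it in at least 1 and 0 changed sign. Of 22 named differences between genotypes 9 kept theirs and 13 lost it. No scaling moved the median of all genes by 0.1.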

Other observations

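Some 45 genes were called in the same direction in all 4 genotypes. Each call contrasts a genotype's own libraries, but all come from the 1 fit of 36 libraries and share its estimate of the spread. Of these 15 were X-linked and higher in males, 25 X-linked and lower, and 5 on other chromosomes and higher, while 0 on other chromosomes were lower. These genes were named after their values were seen. Besides roX1, msl-2, ssx, nod, XRCC1 and PCNA2 the shared rises included fs(1)Yb, a gene of the ovarian soma (1.58 ± 0.35 CPM in males and 0.406 ± 0.155 in females here, SD, n = 3, log2 fold change 1.96), and TrxT, a thioredoxin gene of the testis (0.512 ± 0.132 CPM and 0.109 ± 0.014, log2 fold change 2.21). Both are low in brain. The largest shared fall was the X-linked noncoding RNA lncRNA:CR45668, at 2.08 ± 0.31 CPM in males and 12.8 ± 0.80 in females (log2 fold change -2.62, adjusted p = 6.2e-10), with -2.02 in yw, -1.31 in H3.3WTH3.2HWT and -2.51 in H3.3K36RH3.2HWT.

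Other shared X-linked falls included GCS2alpha, a glucosidase subunit gene of the endoplasmic reticulum (418 ± 12 CPM in males and 529 ± 8.2 in females, log2 fold change -0.34), SkpA, of the SCF ubiquitin ligase (-0.30), Bap60, of the Brahma chromatin remodelling complex (-0.24), and Spase25, of the signal peptidase (-0.26). Among the shared autosomal rises were Aptx (0.12) and Tap42 (0.21).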
